A study of Mus musculus with 12 samples.

Results

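Histone genes were followed through 12 RNA-seq libraries of BV2 cells, an immortalized mouse microglial line, so the data come from 1 cell line and not from microglia of an animal. The set holds the core and linker histone genes whose GRCm38 symbols start with Hist1h, Hist2h, Hist3h or Hist4. Of 70 such symbols, 67 are in the per-library tables among 43432 genes, and the other 3 (Hist1h2bh, Hist1h2bm and Hist2h2bb) are not analysed here. The members comprise 6 H1, 20 H2A, 16 H2B, 12 H3 and 13 H4 genes, with 54 on chromosome 13, 9 on chromosome 3, 3 on chromosome 11 and 1 on chromosome 6. The libraries form 6 groups of 2: untreated cells, cells given lipopolysaccharide (LPS, bacterial endotoxin) at 100 ng/mL, and cells given LPS 1 h after 10 or 30 µM 6-gingerol or 10 or 30 µM 6-shogaol. All groups shared serum-free medium for at least 4 h before treatment. 6-Gingerol and 6-shogaol are ginger phenols; they differ by the loss of water that turns the β-hydroxy ketone of 6-gingerol into the enone of 6-shogaol.

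Histones package DNA: H2A, H2B, H3 and H4 form the nucleosome core, and H1 binds the linker DNA between cores. Most histone mRNAs are made in S phase, when new DNA must be packaged, and end in a conserved stem-loop rather than a poly(A) tail. Some histone genes also give longer, polyadenylated transcripts, which are made outside S phase or in differentiated cells. The libraries were made with a kit that selects poly(A) RNA, so histone mRNAs ending at the stem-loop are largely outside what was measured.

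Library totals ran from 16534960 to 21179867 expected counts. No label says that the replicates were separate cultures, so p-values reflect only the spread between these libraries, which may be technical. The 12 microglial markers were all detected, with a summed level of 2071 to 2287 CPM (read counts scaled to library size, with TMM factors), while 6 markers each of astrocytes, neurons, oligodendrocytes and fibroblasts with endothelium summed to at most 16.8, 0.383, 3.14 and 2.38 CPM. Of these, 2, 1, 3 and 2 had no count in any library. In bulk RNA, fewer cells in a state and less RNA per cell cannot be told apart.

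A histone transcript can end at the stem-loop or run on past it, so these sites are shown for the members described below. The annotated length past the stem-loop does not show whether a poly(A) tail is added. Each line gives 30 bases of the annotated GENCODE M21 transcript, 5′ to 3′, with the stem-loop in capitals.
Hist1h1c: tccaaaaGGCTCTTTTCAGAGCCaccactc
Hist3h2a: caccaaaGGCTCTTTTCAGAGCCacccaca
Hist1h2bg: acccaaaGGCTCTTTTCAGAGCCacccata
Hist2h2aa1: ctaaaaaGGCTCTTTTCAGAGCCacccact
Hist1h4i: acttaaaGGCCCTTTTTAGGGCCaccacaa
The stem of Hist1h4i differs in its letters from that of the other 4, which share 1 stem-loop sequence. A match to the histone stem-loop consensus stood within 100 bases after the stop codon in 44 of 51 member transcripts (86.3%) and in 2 of 39829 transcripts of all other genes (0.00502%). In the annotation the transcript runs on for 840 bases past the stem-loop in Hist1h1c, 1643 in Hist3h2a, 330 in Hist1h4i and 155 in Hist1h2bg, but only 35 in Hist2h2aa1. Hist2h2be, an H2B gene with 1 exon, has 2192 bases after its stop codon and no match to the consensus. Hist1h2bc, another H2B gene, is annotated with 2 exons and also has no match.

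Few histone genes were measured well. Of the 67 members, 18 passed the count filter, 49 did not, and 5 had no count in any library. Over all libraries Hist2h2be averaged 77.6 CPM, Hist1h2bc 64.8 CPM and Hist1h1c, the linker histone H1.2, 56.1 CPM. These 3 genes held between 85.1% and 87.5% of the summed histone CPM of a library. The next genes were Hist1h4i (an H4 gene, 7.15 CPM), Hist3h2a (an H2A gene, 5.39 CPM) and Hist1h2be (an H2B gene, 3.65 CPM), and 13 of the 18 tested genes averaged under 5 CPM. On a per-length scale the order of the mean levels was Hist1h2bc (132 TPM, which scales by transcript length and library size), Hist1h1c (43.2 TPM), Hist2h2be (33.3 TPM) and Hist1h4i (14.9 TPM). The table gives Hist1h2bc a length of 736 bases against 1156 in GENCODE M21, so its TPM depends on the transcript model. The 49 members that failed the filter together gave 2.64 to 5.33 CPM in a library, and the highest of them by mean were Hist1h4j (0.329 CPM), Hist1h4n (0.325 CPM) and Hist1h2ap (0.316 CPM). Their 2 lowest sums, 3.33 and 2.64 CPM, were in the libraries with 30 µM 6-shogaol, against 3.79 to 5.33 CPM in the other 10. That difference was not tested.

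Levels were then set beside annotated 3′ length. For 44 members with 1 transcript of the same length in the tables and in GENCODE M21, 9 had at least 300 bases after the stop codon and 35 had fewer. The longer genes had a median mean level of 1.47 TPM (0.188 to 43.2) and the shorter ones 0.243 TPM (0 to 7.34). Of the longer genes 6 of 9 passed the count filter, and of the shorter ones 4 of 35. Hist1h1c and Hist2h2be were the most abundant of the longer genes, while Hist2h4 (0.188 TPM) had 1257 bases after its stem-loop. Longer transcripts also collect more reads at the same TPM, which bears on the count filter. Many of the shorter genes are annotated with only 0 to 2 bases after the stop codon. Members without an annotated stop codon were also set to 0. The true 3′ length of these genes is not known here, so the values do not show how level depends on it.

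**Figure D1:**
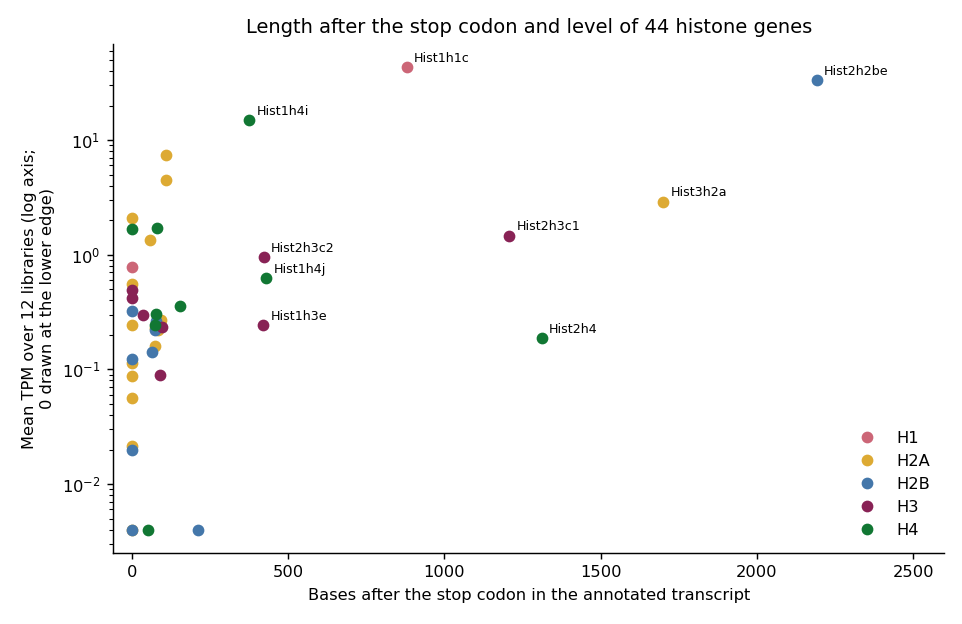
Each point is 1 of 44 histone genes, colored by class, with the bases after the stop codon in the annotated transcript on the x axis and the mean TPM over 12 libraries on a log y axis. The 9 named genes have at least 300 bases after the stop codon and span 0.188 to 43.2 TPM, and genes at 0 TPM are drawn at the lower edge.

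Summed over all 67 genes, histone CPM was 256 and 231 in untreated cells and 244.9 and 245.1 with LPS. It was 225 and 247 with 10 µM 6-gingerol, and 222 and 251 with 30 µM. With 6-shogaol it was 213 and 205 at 10 µM, and 199 and 221 at 30 µM. All 4 libraries with 6-shogaol lay below all 8 others, and the ratio of the means to LPS was 0.853 at 10 µM and 0.856 at 30 µM, with no test on the sum. The similar ratios do not show the same change at both doses. With LPS alone, 10 µM and 30 µM 6-shogaol, Hist2h2be averaged 74.0, 62.5 and 92.1 CPM. In the same order Hist1h1c averaged 62.5, 55.4 and 35.5 CPM, and Hist1h2bc 74.7, 61.4 and 53.1 CPM. At 30 µM 6-shogaol the H1 sum was 37.98 and 34.7 CPM against 56.8 to 67.7 CPM in the other libraries. Nearly all of it came from Hist1h1c alone, at 36.9 and 34.0 CPM there, so it does not show a change of the H1 class. The H2B sum, mostly Hist2h2be and Hist1h2bc, was at 138 and 163 CPM and stayed inside the range of the others (128 to 170 CPM).

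**Figure D2:**
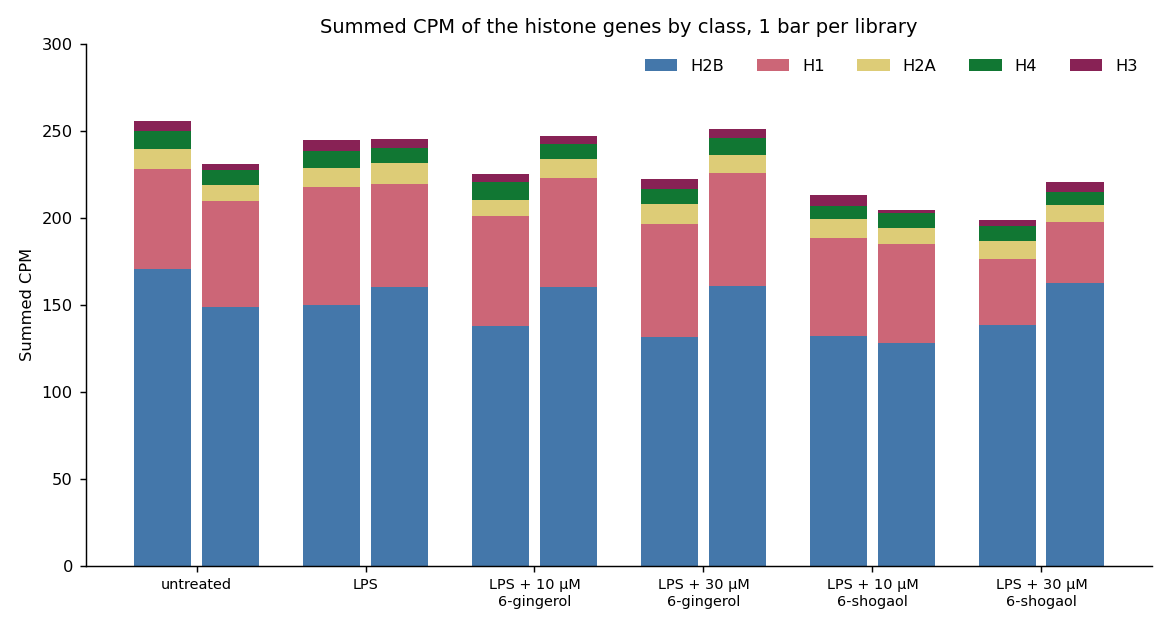
Stacked bars give the summed CPM of the histone genes by class, with 1 bar for each of the 12 libraries in 6 groups. H2B and H1 make up most of each bar. The H1 segment, nearly all of it Hist1h1c, is shortest in the 2 libraries with 30 µM 6-shogaol (37.98 and 34.7 CPM).

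LPS against untreated cells asks whether the inflammatory stimulus alone moved histone transcripts. None of the 18 tested genes passed edgeR's quasi-likelihood test at an adjusted p under 0.05 (background: 11.8% of 12705 genes called, 7.66% higher and 4.16% lower), none had an unadjusted p under 0.05, and DESeq2 called 0. Hist1h1c was at 56.6 and 59.4 CPM in untreated cells and 66.4 and 58.5 CPM with LPS, a log2 difference of 0.11 with a 95% interval of -0.10 to 0.32. The median log2 difference was 0.01 over the 18 genes and -0.03 over all genes. The intervals of most members were wide, with a median half-width of 1.01 on the log2 scale against 0.29 over all genes, so changes of under 2-fold in the low genes were not detectable at this depth.

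6-Gingerol gave no histone call. At 10 µM 0 of 18 genes passed edgeR's test against LPS (background 0%), with 0 at an unadjusted p under 0.05, and at 30 µM again 0 (background 0%), with 1 at an unadjusted p under 0.05. DESeq2 called 0 at both doses. Hist1h1c was at 61.6 and 61.3 CPM with 10 µM and at 64.1 and 63.1 CPM with 30 µM, both inside the range of the LPS libraries (66.4 and 58.5 CPM). Its interval against LPS at 30 µM was -0.18 to 0.24 on the log2 scale, and that of Hist3h2a was -0.35 to 0.40.

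At 10 µM 6-shogaol 0 of 18 genes passed edgeR's test against LPS (background 0.638%, with 0.063% higher and 0.575% lower), with 2 at an unadjusted p under 0.05. DESeq2 called 0 of the 15 genes for which it gave an adjusted p. Hist1h1c stood at 55.6 and 55.1 CPM, below both LPS libraries, with a log2 difference of -0.17 (SE 0.10, 95% interval -0.38 to 0.04). Hist1h2bc, at 61.2 and 61.7 CPM, also lay below both LPS libraries (75.3 and 74.0 CPM), with a difference of -0.28 (SE 0.13, edgeR adjusted p = 0.46). Fitted from these 4 libraries alone, Hist1h2bc passed (-0.28, edgeR adjusted p = 0.0267).

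At 30 µM 6-shogaol 4 histone genes were lower than with LPS alone and 0 were higher: Hist1h1c, Hist3h2a, Hist1h2bc and Hist1h2bg. The background in this comparison was 25.4% of genes called, 12.6% higher and 12.8% lower. The share of histone genes called, 4 of 18, is thus near that of all genes, and all 4 calls go 1 way. That direction was not the same in every alternative. DESeq2 called 0 higher and 4 lower, but the fit without the count filter called 1 higher and 5 lower. With these 2 groups fitted alone, 2 were higher and 4 lower, and with fragment length in the fit 1 was higher and 4 lower. The median log2 difference was -0.22 over the 18 genes and 0.00 over all genes. The 4 genes come from 3 classes, and by CPM each lay below all 10 other libraries in both replicates. How many of all genes do so was not counted. These 4 were picked by their calls in the same libraries, so this separation is not separate evidence. In the normalized values deposited by the authors, Hist1h2bg was not separated. There 30 µM 6-shogaol replicate 1 was at 17.074 and 10 µM 6-gingerol replicate 2 at 17.071.

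Hist1h1c (ENSMUSG00000036181, chr13:23738808-23740367, plus strand, 1 exon) encodes the linker histone H1.2. It was at 56.6 and 59.4 CPM without treatment and 66.4 and 58.5 under LPS. In the 6-gingerol groups it was at 61.6 and 61.3 (10 µM) and 64.1 and 63.1 (30 µM), and in the 6-shogaol groups at 55.6 and 55.1 (10 µM) and 36.9 and 34.0 (30 µM). The first 10 libraries span 55.1 to 66.4 CPM and the last 2 stand well below them. Against LPS it fell by 0.82 on the log2 scale (SE 0.10, 35.5 ± 2.01 against 62.5 ± 5.59 CPM, mean ± SD, n = 2 each, edgeR adjusted p = 3.6e-05). The call held in all 13 alternative analyses, with adjusted p from 1.81e-10 to 0.00143. Only 8.5% of its 50-base words occur in another gene, which limits how many of its reads could belong to other histone genes.

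Hist3h2a (ENSMUSG00000078851, chr11:58954685-58956830, plus strand, 1 exon) encodes an H2A protein. It was at 6.80 and 6.24 CPM without treatment and 6.26 and 6.23 under LPS. In the 6-gingerol groups it was at 4.48 and 5.68 (10 µM) and 7.13 and 5.55 (30 µM), and in the 6-shogaol groups at 5.53 and 5.64 (10 µM) and 2.7 and 2.44 (30 µM). No other library reached so low a level. The difference from LPS was -1.29 on the log2 scale (SE 0.20, 2.57 ± 0.186 against 6.25 ± 0.0161 CPM, n = 2 each, edgeR adjusted p = 0.000282), and held in all 13 alternatives. Of its 50-base words 31.5% occur in 15 other genes, mostly H2A genes, so part of its reads could be divided among them. Its first bases are also annotated as the first exon of Trim17 on the same strand, whose reads could be divided between both genes. Trim17 averaged 0.346 CPM with LPS and 0.625 CPM with 30 µM 6-shogaol, a difference of 0.87 (SE 0.52, edgeR adjusted p = 0.249).

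Hist1h2bc (ENSMUSG00000018102, chr13:23684199-23692908, plus strand, 2 exons) encodes an H2B protein. It was at 73.0 and 60.9 CPM without treatment and 75.3 and 74.0 under LPS. In the 6-gingerol groups it was at 59.96 and 74.96 (10 µM) and 57.9 and 72.6 (30 µM), and in the 6-shogaol groups at 61.2 and 61.7 (10 µM) and 51.1 and 55.2 (30 µM). The LPS libraries were among the highest and those with 30 µM 6-shogaol the lowest, with wide spread in the 6-gingerol groups. Against LPS it fell by 0.49 on the log2 scale (SE 0.13, edgeR adjusted p = 0.0138). This call did not hold without LPS replicate 1 (edgeR adjusted p = 0.0759), LPS replicate 2 (0.0639) or 30 µM 6-shogaol replicate 1 (0.0965). Of its 50-base words 30.1% occur in 68 other genes, other H2B genes among them. Against untreated cells the difference, -0.33 with an interval of -0.61 to -0.05, did not pass (edgeR adjusted p = 0.0816).

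Hist1h2bg (ENSMUSG00000058385, chr13:23571396-23572013, plus strand, 1 exon) is a low-level H2B gene. It had 16.7 and 21.5 expected counts without treatment and 18.9 and 21.5 under LPS. In the 6-gingerol groups it was at 9.41 and 14.7 (10 µM) and 12.6 and 12.5 (30 µM), and in the 6-shogaol groups at 13.6 and 14.3 (10 µM) and 5.96 and 2.27 (30 µM). All 8 libraries with a compound lay below the 2 LPS libraries, but the gene passed against LPS only at 30 µM 6-shogaol. How many of all genes have this order was not counted. The fall at 30 µM 6-shogaol was -2.15 (SE 0.51, edgeR adjusted p = 0.00599). Without replicate 2 of that group it was -1.53 and did not pass (edgeR adjusted p = 0.0873). Of its 50-base words 49.7% occur in other H2B genes, so the division of reads among them is uncertain.

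Hist2h2be (ENSMUSG00000068854, chr3:96221119-96223738, plus strand, 1 exon) is the H2B gene whose transcript shares no 50-base word with any other gene. It was at 90.6 and 82.0 CPM without treatment and 68.7 and 79.3 under LPS. In the 6-gingerol groups it was at 72.9 and 78.7 (10 µM) and 68.4 and 81.0 (30 µM), and in the 6-shogaol groups at 64.4 and 60.6 (10 µM) and 81.8 and 102 (30 µM). Both libraries with 30 µM 6-shogaol lay above both LPS libraries but overlap with the untreated ones. The difference from LPS was 0.31 (95% interval 0.05 to 0.58) and did not pass (edgeR adjusted p = 0.0778); over the 13 alternatives its adjusted p ran from 0.0279 to 0.532, and it passed in 3.

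**Figure D3:**
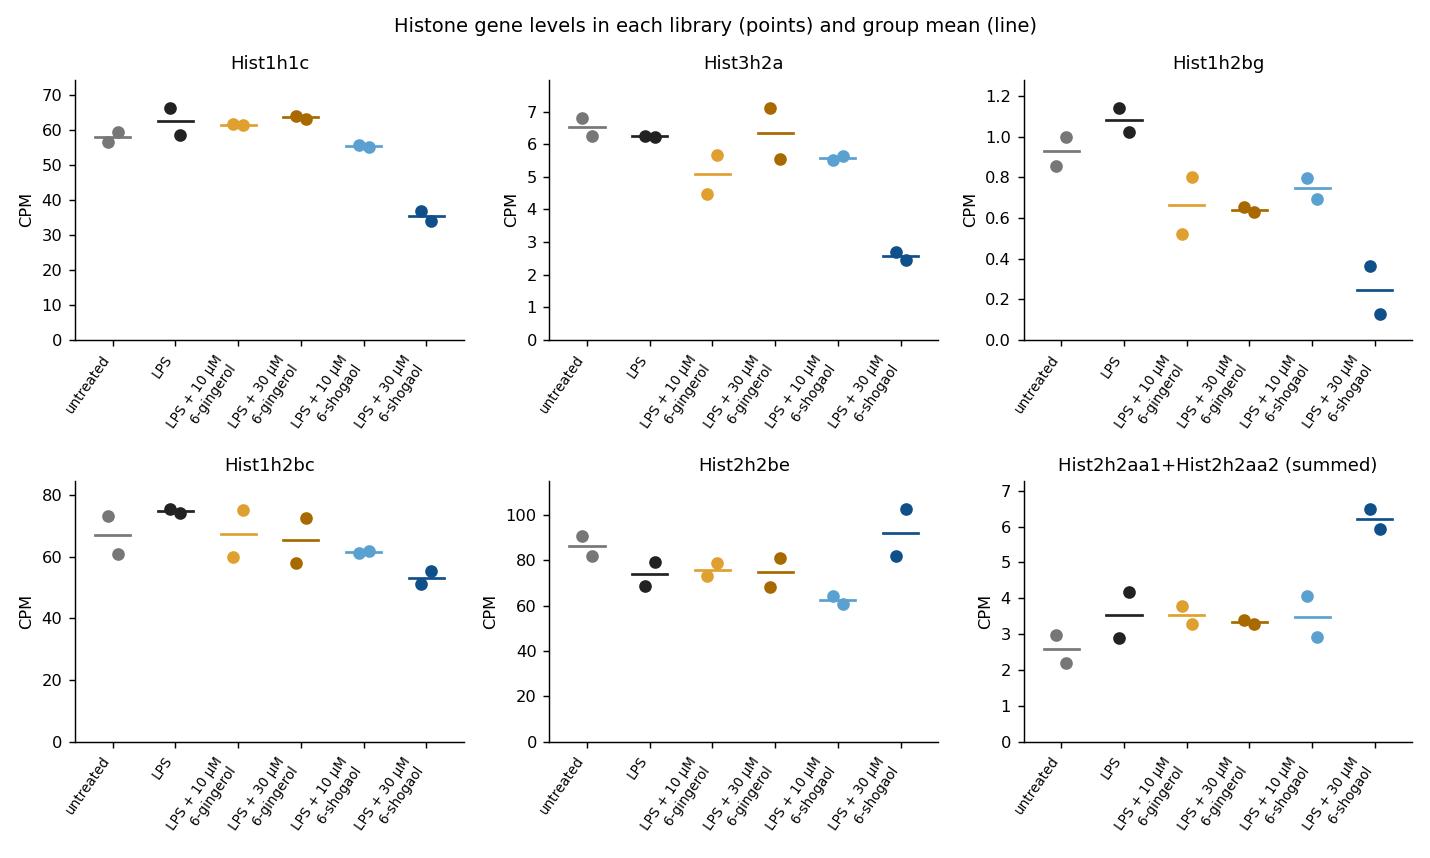
Points give the CPM of 5 histone genes and of 1 summed pair in each library, 2 per group, and lines the group means; each y axis starts at 0. Hist1h1c, Hist3h2a, Hist1h2bg and Hist1h2bc are lowest with 30 µM 6-shogaol, while the summed pair Hist2h2aa1 and Hist2h2aa2 is highest there (6.48 and 5.92 CPM).

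Hist2h2aa1 and Hist2h2aa2 are near-identical H2A genes, every 50-base word of the second occurring in the first, and their reads could not be told apart reliably. Apart, their values were erratic: Hist2h2aa2 had 0.0575 CPM in one library with 10 µM 6-gingerol and 1.82 CPM in the other. Summed, the pair was at 2.98 and 2.19 CPM without treatment and 2.90 and 4.17 under LPS. In the 6-gingerol groups it was at 3.78 and 3.28 (10 µM) and 3.40 and 3.27 (30 µM), and in the 6-shogaol groups at 4.06 and 2.91 (10 µM) and 6.48 and 5.92 (30 µM). The last 2 libraries lie above all others. In a fit with near-identical copies summed, an analysis chosen after the data were seen, the pair rose by 0.79 against LPS (SE 0.23, edgeR adjusted p = 0.0191; background 12.6% higher) and by 1.27 against untreated cells (edgeR adjusted p = 0.00114; background 13.4% higher). The call against untreated cells held without each of the 4 libraries. That against LPS did not hold without LPS replicate 1 (edgeR adjusted p = 0.183) or without 30 µM 6-shogaol replicate 1 (0.0996) or 2 (0.0547). The pair was also above 30 µM 6-gingerol by 0.88 (edgeR adjusted p = 0.0108; background 12.5% higher) and above 10 µM 6-shogaol by 0.84 (edgeR adjusted p = 0.018; background 9.87% higher, 9.54% lower), and each of these calls held without 1 of the 4 libraries only. Predicted genes annotated on the opposite strand of this pair, Gm20632 and Gm20633, together had 36.8 and 48.2 expected counts at 30 µM 6-shogaol and 60.6 to 112.6 in the other libraries. Whether the counting used strand is not given in the sources used here. Another predicted gene, Gm20634, overlaps Hist2h2aa1 on the same strand and shares 50-base words with both genes of the pair. Its expected counts ranged from 9.77 to 112.74, both extremes lying in the 10 µM 6-shogaol group. LPS alone gave it 33.33 and 35.38, and the highest 6-shogaol dose 43.01 and 23.26. Reads could also be divided between Gm20634 and the pair, which summing the pair does not settle. The part of these overlaps in the result was not tested.

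The other tested members gave no call against LPS at 30 µM 6-shogaol. Hist1h4i, the only H4 gene tested, was nearly flat across all 12 libraries (5.96 to 8.21 CPM), with an interval against LPS of -0.42 to 0.27. Hist1h2be, at 3.11 to 4.47 CPM, had an interval of -0.40 to 0.50. None of the 4 tested H3 genes (Hist1h3d, Hist1h3g, Hist2h3c1 and Hist2h3c2) passed, and their intervals were wide, from -2.47 to 2.40 on the log2 scale for Hist2h3c1. Hist1h1d, the linker histone H1.3, had 12 and 8 expected counts with LPS and 6 and 5 with 30 µM 6-shogaol, a difference of -0.73 (SE 0.51, edgeR adjusted p = 0.332).

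**Figure D4:**
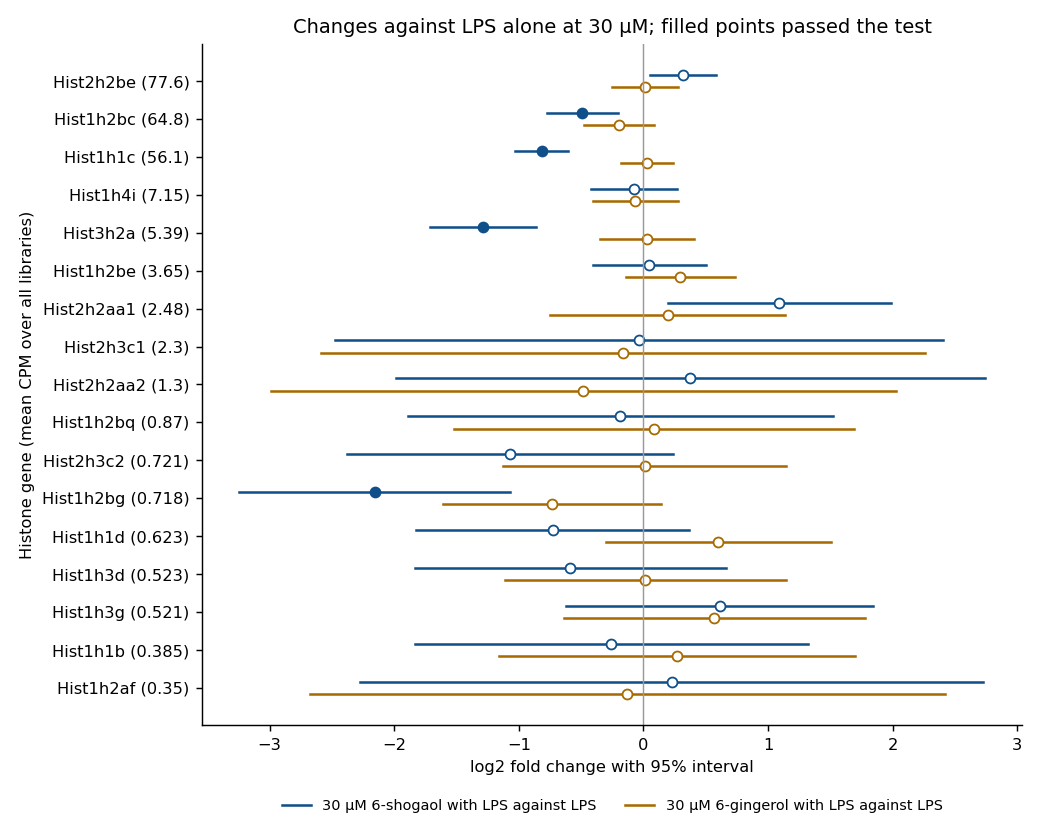
Log2 fold changes against LPS with 95% intervals are drawn for 17 of the 18 tested histone genes at 30 µM 6-shogaol (blue) and 30 µM 6-gingerol (brown), each with LPS, in order of mean CPM; Hist1h2br, at 0 in 6 of 12 libraries, is left out. The 4 filled points, all for 6-shogaol and all below 0, are the genes that passed, and intervals widen as the level drops.

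Hist1h1d read differently in the authors' deposited table of normalized values. There it stood at 50.9 and 51.1 with LPS and at 17.2 and 15.9 with 30 µM 6-shogaol, in the authors' normalized units. In the authors' deposited table the other groups ranged from 34.7 to 66.2. limma-trend on the authors' deposited table gave a fall of 1.57 on the log2 scale (adjusted p = 0.00117; background 18.8% of 13469 genes called, 9.24% higher and 9.6% lower). The same analysis called the 4 genes above lower and 0 of 22 histone genes higher. The ratio of the deposited value to CPM was 18 to 18.6 for Hist1h1c but 47.0 to 134 for Hist1h1d, so the 2 deposited sources did not count the same reads for Hist1h1d. The ratio also varied widely for other low-level members: it was 21.2 to 67.0 for Hist1h2bg, 22.9 to 94.4 for Hist1h3d, 16.7 to 47.7 for Hist1h3g and 0 to 22.3 for Hist1h2bq. The transcript of Hist1h1d is 744 bases long in the per-library tables and 7425 bases in GENCODE M21.

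The compounds were compared directly at 2 matched doses. At 10 µM 0 of 18 genes differed between 6-shogaol and 6-gingerol by edgeR (background 0.638%, with 0.0787% higher and 0.559% lower), with 3 at an unadjusted p under 0.05. DESeq2 called 0 of the 13 genes for which it gave an adjusted p. The 95% interval of the difference was -0.36 to 0.06 for Hist1h1c and -0.27 to 0.52 for Hist3h2a, which leaves room for modest differences. At 30 µM 2 genes were lower with 6-shogaol than with 6-gingerol and 0 were higher (background 25%, with 12.5% higher and 12.4% lower), a share no larger than that of all genes. Hist1h1c differed by -0.84 (SE 0.10, edgeR adjusted p = 2.68e-05) and Hist3h2a by -1.31 (SE 0.20, edgeR adjusted p = 0.000248). Hist1h2bc, at -0.30 with an interval of -0.58 to -0.01, and Hist1h2bg, at -1.42 with an interval of -2.59 to -0.24, did not pass (edgeR adjusted p = 0.121 and 0.0734).

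The dose step was then followed for each compound. From 10 to 30 µM 6-shogaol 3 genes fell and 1 rose (background 19.4%, with 9.85% higher and 9.54% lower): Hist1h1c by -0.64 (SE 0.10, edgeR adjusted p = 0.00048), Hist3h2a by -1.12 (SE 0.20, 0.0014), Hist1h2bg by -1.64 (SE 0.54, 0.0457) and Hist2h2be by 0.56 (SE 0.13, 0.006). With near-identical copies summed, 3 of 15 histone features fell and 3 rose, the added rises being the Hist2h2aa pair and a sum of 7 H2A genes (Hist1h2ad, Hist1h2af and others; 2.25, SE 0.73, edgeR adjusted p = 0.0431). That sum was at 0.176 and 0.194 CPM at 10 µM and 0.978 and 0.845 CPM at 30 µM, against 0.611 and 1.04 CPM under LPS, and its difference from LPS at 30 µM did not pass (0.11, interval -1.08 to 1.299). The call of Hist2h2be did not hold without 10 µM 6-shogaol replicate 2 (edgeR adjusted p = 0.0789) or 30 µM 6-shogaol replicate 2 (0.103), and that of Hist1h2bg held in 6 of 12 alternatives. From 10 to 30 µM 6-gingerol 0 of 18 passed (background 0.00787%), with 0 at an unadjusted p under 0.05. The difference between the 2 dose steps, a test added after the data were seen, passed for Hist1h1c (-0.69, SE 0.14, edgeR adjusted p = 0.00838) and Hist3h2a (-1.44, SE 0.27, edgeR adjusted p = 0.00538), against a background of 8.17% (4.27% higher, 3.9% lower). For Hist2h2be it was 0.58 with an interval of 0.20 to 0.96 (edgeR adjusted p = 0.0563).

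Against untreated cells, 30 µM 6-shogaol with LPS gave 3 lower and 0 higher genes (background 25.4%, with 13.3% higher and 12.1% lower). Hist1h1c was lower by -0.71 (SE 0.10, edgeR adjusted p = 0.000124), Hist3h2a by -1.35 (SE 0.20, 0.000179) and Hist1h2bg by -1.99 (SE 0.51, 0.0106). Trim17, which shares the start of Hist3h2a, was higher by 1.69 (SE 0.57, edgeR adjusted p = 0.0419). The comparison shares its treated libraries with the one against LPS. Without 30 µM 6-shogaol replicate 2, Hist1h2bg did not pass (edgeR adjusted p = 0.139).

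Cell cycle and histone supply genes were followed at 30 µM 6-shogaol in lists chosen with earlier results of these data known, against a background of 12.6% of all genes higher and 12.8% lower. Of 44 genes of the G1/S transition and DNA replication, 41 rose against LPS and 0 fell, with a median of 0.88 on the log2 scale. The largest rises were in Cdc6, which loads the replicative helicase (10.3 ± 0.422 to 40.8 ± 2.62 CPM, 1.99, edgeR adjusted p = 2.63e-08), and Ccne2, a cyclin that drives entry into S phase (1.85, edgeR adjusted p = 9.23e-07). Of 28 G2/M genes 14 rose, 1 fell and 13 were not called. In the same libraries 4 of 18 histone genes of the rule were lower and 0 were higher. Marker lists of other cell types also moved: both tested fibroblast and endothelial markers, 1 of 2 oligodendrocyte markers and the 1 tested astrocyte marker fell, and of 12 microglial markers 2 rose and 2 fell. From LPS to 30 µM 6-shogaol the summed fibroblast and endothelial markers went from 1.998 and 2.38 to 0.427 and 0.507 CPM, and the astrocyte markers from 16.8 and 15.8 to 10.2 and 8.73 CPM. In untreated cells these sums were 0.308 and 0.512 CPM, and 6.11 and 6.09 CPM. LPS alone had raised both fibroblast and endothelial markers and the astrocyte marker (background 7.66% higher), but no oligodendrocyte marker was called. Between 30 µM 6-shogaol with LPS and untreated cells, only the astrocyte marker of these was called, as higher (background 13.3% higher). The part of these markers in the results at this dose was not tested.

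Among 21 genes for histone mRNA transcription, processing and decay, 8 rose, 0 fell and 13 were not called (median 0.19; background 12.6% higher, median 0.00). Slbp, the protein that binds the histone stem-loop, rose by 0.93 (SE 0.14, edgeR adjusted p = 0.000174), from 59.7 ± 1.82 to 113 ± 15.3 CPM. Srrt, a partner of the cap-binding complex, rose by 0.81 (SE 0.15, edgeR adjusted p = 0.00102). Among 21 histone chaperones and chromatin assembly factors, 11 rose, 0 fell and 10 were not called (median 0.38), led by Mms22l, which takes part in repair of replication forks (1.20, SE 0.14), and Asf1b, which hands H3 and H4 to assembly factors (1.04, SE 0.10). With 30 µM 6-gingerol or 10 µM of either compound none of these 4 lists had a call against LPS by edgeR.

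Replication-independent variants lie outside the naming rule and have polyadenylated mRNAs. Of 13 such genes 10 were tested, 1 rose and 1 fell against LPS at 30 µM 6-shogaol, a share no larger than the 25.4% of all genes called. H2afz, which encodes the variant H2A.Z, rose from 369 ± 37.1 to 506 ± 2.95 CPM (0.45, SE 0.13, edgeR adjusted p = 0.0197). Cenpa, the H3 variant of centromeres, fell from 76.8 ± 0.0936 to 57.7 ± 0.829 CPM (-0.41, SE 0.09, edgeR adjusted p = 0.00454).

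**Figure D5:**
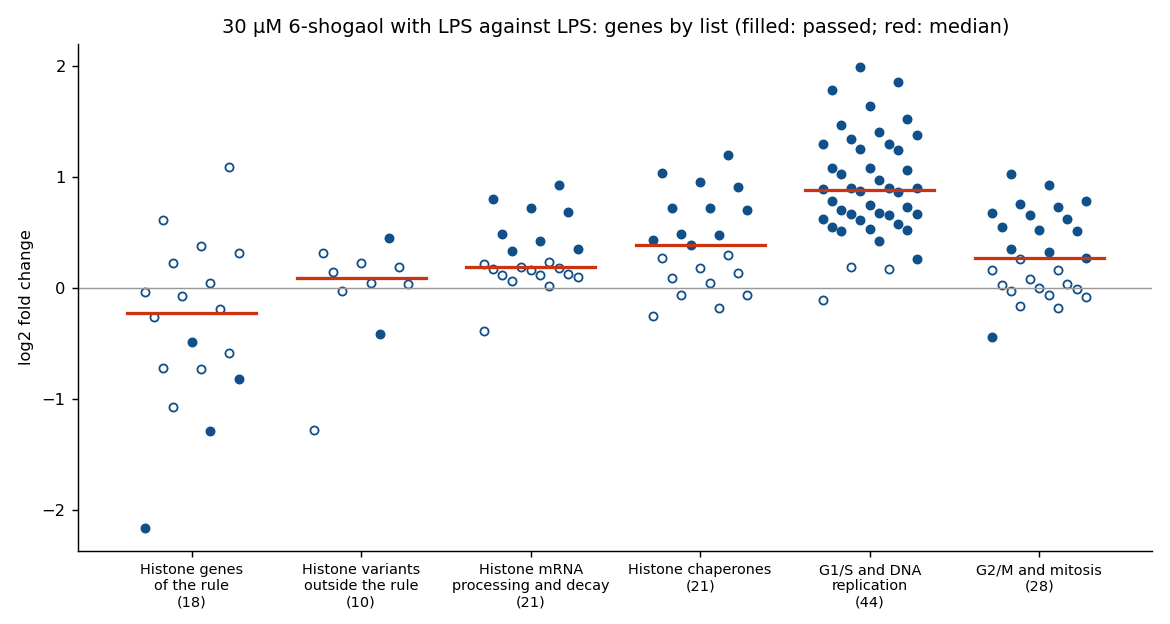
Points are log2 fold changes of single tested genes at 30 µM 6-shogaol with LPS against LPS, by list with the number of genes below, filled where the gene passed, with the list's median in red. The histone genes of the rule have a median of -0.22 with 4 filled points below 0, and 41 of 44 replication genes are filled above 0.

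RNA without a poly(A) tail was followed through 21 such transcripts, of which 10 had no count. Their sum ran from 12.8 to 40.0 CPM, with 32.3 and 12.8 CPM with LPS and 21.02 and 15.0 CPM with 30 µM 6-shogaol. The LPS replicates thus spanned much of that range, and none of the 5 tested transcripts passed edgeR's test in a comparison against LPS. The summed level in the libraries with 30 µM 6-shogaol lies within the range of the other libraries.

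Promoters are shown for 3 members that fell at 30 µM 6-shogaol and have an entry in RefSeq, to set their sequence beside their shared direction. Each runs from 250 bases before to 50 bases after the start (RefSeq, GRCm38.p6, plus strand), with motif matches in capitals.
Hist1h1c, chr13:23738557-23738856: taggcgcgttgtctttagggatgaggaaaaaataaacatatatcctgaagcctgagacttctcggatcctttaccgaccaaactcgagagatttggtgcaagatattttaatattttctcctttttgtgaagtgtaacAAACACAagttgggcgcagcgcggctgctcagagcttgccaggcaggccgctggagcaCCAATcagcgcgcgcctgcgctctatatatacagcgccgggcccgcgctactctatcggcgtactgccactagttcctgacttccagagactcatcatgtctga
Hist3h2a, chr11:58954435-58954734: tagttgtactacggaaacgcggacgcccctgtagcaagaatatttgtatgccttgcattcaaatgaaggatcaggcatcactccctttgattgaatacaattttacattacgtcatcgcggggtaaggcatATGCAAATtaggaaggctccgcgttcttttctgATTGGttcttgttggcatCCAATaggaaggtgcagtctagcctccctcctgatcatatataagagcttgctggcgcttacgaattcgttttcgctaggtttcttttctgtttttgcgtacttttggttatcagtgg
Hist1h2bg, chr13:23571150-23571449: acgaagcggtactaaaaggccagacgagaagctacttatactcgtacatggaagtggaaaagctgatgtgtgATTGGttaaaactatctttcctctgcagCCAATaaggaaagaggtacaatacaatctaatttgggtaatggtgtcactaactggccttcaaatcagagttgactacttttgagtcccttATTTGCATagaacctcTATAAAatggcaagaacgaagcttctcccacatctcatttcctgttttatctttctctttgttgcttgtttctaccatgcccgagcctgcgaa
The motifs searched on both strands were CCAAT and the TATA-box sequence TATAAA, with the octamer ATGCAAAT marked for H2A and H2B and the H1-box sequence AAACACA for H1; matches on the minus strand read ATTGG or ATTTGCAT. CCAAT stood in 49 of 58 member promoters (84.5%) and in 37.4% of all 32851 promoters of the same length, and TATAAA in 35 of 58 (60.3%) against 13.6%. The octamer was in 4 of 13 H2B and 7 of 17 H2A promoters against 1.74% of all, and AAACACA in 5 of 6 H1 promoters against 7.18%. All 3 printed promoters hold CCAAT, as do 6 of 6 H1, 17 of 17 H2A, 13 of 13 H2B and 10 of 10 H3 promoters and 3 of 12 H4 promoters, so it does not set apart the genes that fell. H2A and H2B genes often lie head to head, so some promoters overlap and share matches.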

How the data were processed

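RNA-seq of 12 BV2 libraries (6 groups of 2) was analysed from deposited RSEM gene tables. The expected count per gene, made by the authors with RSEM per the file headers, was rounded (7.03% of values were not whole). TPM, deposited by the authors, was used for levels between genes, and the deposited gene length and effective length to find fragment lengths. The authors also deposited a table of normalized signal, whose normalization is not stated. The submitters' processing notes name Trimmomatic 0.39, STAR 2.7.11b, RSEM 1.3.3, DESeq2 1.44.0 and the build GRCm38; the annotation release is not given in the sources used here. Symbols and transcripts came from GENCODE M21.

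Genes were filtered with filterByExpr, leaving 12705, TMM-scaled and fitted in edgeR 4.0.16 (R 4.3.3) over all libraries, with 6 group means and 6 residual degrees of freedom. Quasi-likelihood F tests were 2-sided, with Benjamini-Hochberg adjustment over all genes and a threshold of 0.05. The common biological coefficient of variation was 9.45%. Intervals cover 95%. The script was tested on simulated data. Alternatives were DESeq2 1.42.0, other scalings, no filter, 2 groups alone, a replicate block, fragment length, single libraries left out, limma 3.58.1 on the authors' table and summed copies (at least 75% shared 50-base words); the last 2 were added after seeing the data.

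Values in every library are given for each tested histone gene called against LPS or between compounds, and at most 4 genes of another list per comparison are named (the 2 largest called rises and falls). The summed pair Hist2h2aa1 and Hist2h2aa2, Hist2h4 and the genes that overlap members were singled out after their values were seen. The members and lists were chosen with earlier results of these data known.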

Additional observations from a re-analysis of the deposited data

Results flagged for a closer look

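Hist1h1c and Hist3h2a differed between the 2 compounds in the step from 10 to 30 µM. The test was added after the data were seen. It was passed by 2 of 18 histone genes, against a background of 8.17% of all genes, so the share is near that of all genes. For Hist1h1c, the step with 6-shogaol minus the step with 6-gingerol was -0.69 on the log2 scale (95% interval -0.99 to -0.39, edgeR adjusted p = 0.00838), with -0.64 for 6-shogaol and 0.05 for 6-gingerol. For Hist3h2a it was -1.44 (95% interval -2.02 to -0.86, edgeR adjusted p = 0.00538), with -1.12 for 6-shogaol and 0.32 for 6-gingerol. Both 30 µM 6-shogaol libraries lay below both 10 µM 6-shogaol libraries for each gene. For Hist3h2a the lowest 6-gingerol library was at 10 µM (4.48 CPM).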

How the results depend on the processing

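Of 117 counts of called histone genes under alternatives, 106 stayed within 1.5 times the reported count. This includes comparisons with a reported count of 0, where a match is 0 against 0. The measure also takes no account of the direction of the calls. Without the count filter 62 histone genes were tested. The count was then 2 for LPS against untreated, 1 for 30 µM 6-gingerol and 1 for 10 µM 6-shogaol. For 30 µM 6-shogaol against LPS it was 6 (1 higher, 5 lower). For 6-shogaol against 6-gingerol it was 1 at 10 µM and 5 at 30 µM (2 higher, 3 lower). It was 8 for 30 against 10 µM 6-shogaol (4 higher, 4 lower) and 7 for 30 µM 6-shogaol against untreated (3 higher, 4 lower). The calls for 30 µM 6-gingerol, 10 µM 6-shogaol and the compounds at 10 µM were all Hist1h2br, at -7.02, -7.02 and -5.66 on the log2 scale. That gene had a count in only 6 of 12 libraries and is a near-identical copy of Hist1h2bq. With the 2 compared groups fitted alone, 1 gene was called for 10 µM 6-shogaol against LPS, and 6 for 30 µM 6-shogaol against LPS (2 higher, 4 lower). For these fits, and for those below with a library left out, the share of all genes called is not given here. Their counts therefore have no background. Leaving out 1 library at a time gave 0 for LPS against untreated, 6-gingerol at both doses and the compounds at 10 µM; it gave 0 to 1 for 10 µM 6-shogaol (1 without its replicate 1), 3 to 5 for 30 µM 6-shogaol against LPS, 2 to 4 for the compounds at 30 µM (4 without 30 µM 6-shogaol replicate 1), 2 to 5 for 30 against 10 µM 6-shogaol (2 without 30 µM replicate 2) and 3 to 4 against untreated. Where this left 1 library in a group, it was assumed to vary like the others. The count filter was rerun in each fit with a library left out, so 21 to 23 histone genes were tested there and not 18. With near-identical copies summed (15 histone features), the counts were 5 for 30 µM 6-shogaol against LPS (1 higher, 4 lower), 3 for the compounds at 30 µM (1 higher, 2 lower), 6 for 30 against 10 µM 6-shogaol (3 higher, 3 lower) and 4 against untreated (1 higher, 3 lower). No single-gene value reversed while called; the calls of Hist1h1c and Hist3h2a held in 13 of 13 alternatives in each of their 4 comparisons. The other causes of change were not tested.

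The replicate numbers did not pair the samples: of 15 pairs of groups, 5 had correlated deviations over 0.1 (range -0.31 to 0.18). With the replicate number as a block, the counts were 0 where the main count was 0, 4 for 30 µM 6-shogaol against LPS, 2 for the compounds at 30 µM, 3 for 30 against 10 µM 6-shogaol and 3 against untreated.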
